A study of Mus musculus with 38 samples.

Results

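The 9 genes described here, Mbp, Mog, Mag, Mobp, Cnp, Cldn11, Trf, Opalin and Ermn, are a list of myelin proteins and other products of mature oligodendrocytes. They were taken by symbol from a table of 25230 genes, and all 9 were among the 16309 genes with enough counts to be tested. RNA came from microdissected adBNST (anterodorsal bed nucleus of the stria terminalis), forebrain tissue involved in anxiety and stress responses, of mice labelled wild type. Control mice had 10 female and 10 male libraries. Mice given chronic variable mild stress over 6 weeks had 9 female and 9 male libraries. The stress combined changes of light, temperature, bedding and caging with swimming, restraint, isolation and predator sounds in random order. The age of the mice is not given, and all groups shared the wild-type genotype and the dissected region.

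Oligodendrocytes wrap axons of the central nervous system in layers of their own membrane, the myelin sheath, which speeds conduction and feeds the axon. Precursor cells that carry the receptor Pdgfra leave the cell cycle and, under the transcription factors Olig2, Sox10 and Myrf, switch on the myelin genes together. The mRNAs of myelin proteins are abundant in white matter, and a forebrain nucleus such as the adBNST lies next to fibre tracts.

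Levels are given as CPM, the usual scaling of counts to library size, with sizes adjusted by the trimmed mean of M-values. Changes are log2 fold changes ± SE from edgeR's quasi-likelihood test, with p-values adjusted by Benjamini-Hochberg over the 16309 genes, and genes under 0.05 after adjustment are said to pass. Total counts ran from 9064136 to 84842828 per library, and the lowest count of any member in any library was 555, for Opalin in male control 10. Nothing in the labels ties each library to an animal of its own, so the p-values measure the spread between libraries, which may be technical in part. On the first principal component, which held 29.6% of the variance, 5 libraries stood apart (female controls 1 and 6, stressed females 1 and 2, and male control 3), with scores of 68.8 to 88.7 against at most 13.3 in the other 33. The libraries numbered 6 and above (18 libraries) also differed from those numbered 1 to 5 (20 libraries) in 45.5% of the genes tested. The labels do not say what the numbers stand for, both sets hold all 4 groups, and both features are carried through the results below.

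The sequences before the start of transcription are given first because the 9 genes moved together across libraries. RefSeq's promoter table (GRCm38.p6) held 7 of the 9 genes. Mbp and Trf had no entry. Each entry was searched over the 250 bases before the start, on both strands, for the SOX-type word ACAAAG, the MYRF-type words CTGGCAC and CTGGTAC and the E-box CAGCTG. A match on the other strand appears below as the reverse complement. None of these words is part of another. Of 32536 windows of the same length, 16.5% held ACAAAG, 4.21% CTGGCAC, 1.82% CTGGTAC and 13.1% CAGCTG. Among the 7 genes, 4 held ACAAAG (Mobp, Mag, Cnp and Opalin), 3 held a MYRF-type word (Mag, Cnp and Mog) and 0 held CAGCTG. The 7 genes had 9 entries, 3 of them for Mag, and a word in any entry counted for the gene. The shares over all windows are per single window and single word, so the counts per gene are not in the same unit. Cldn11 and Ermn held none of the 4 words. Mobp held 6 copies of ACAAAG, and only 2 of the 32536 windows (0.00615%) held 5 or more. The 4 sequences with the most matches, or with the CTGGTAC word, are printed 5′ to 3′ on the strand of the gene up to the base before the annotated gene, with the matched words in capitals. They are Mobp, chr9:120149492-120149706 on the plus strand, Mag, chr7:30914874-30915113 on the minus strand, Cnp, chr11:100574689-100574903 on the plus strand, and Mog, chr17:37023399-37023648 on the minus strand.
Mobp: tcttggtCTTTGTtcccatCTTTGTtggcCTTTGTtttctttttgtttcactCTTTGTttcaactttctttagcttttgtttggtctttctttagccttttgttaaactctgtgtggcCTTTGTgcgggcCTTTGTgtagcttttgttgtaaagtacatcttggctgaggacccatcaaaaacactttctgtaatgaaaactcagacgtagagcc
Mag: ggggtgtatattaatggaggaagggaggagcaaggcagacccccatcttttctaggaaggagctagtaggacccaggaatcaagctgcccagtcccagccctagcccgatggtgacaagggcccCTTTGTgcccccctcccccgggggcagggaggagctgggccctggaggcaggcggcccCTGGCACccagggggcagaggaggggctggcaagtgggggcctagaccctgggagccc
Cnp: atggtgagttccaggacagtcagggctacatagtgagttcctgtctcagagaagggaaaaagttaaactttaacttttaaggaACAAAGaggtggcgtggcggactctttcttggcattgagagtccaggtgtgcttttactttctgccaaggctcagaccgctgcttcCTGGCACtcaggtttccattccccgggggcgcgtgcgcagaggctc
Mog: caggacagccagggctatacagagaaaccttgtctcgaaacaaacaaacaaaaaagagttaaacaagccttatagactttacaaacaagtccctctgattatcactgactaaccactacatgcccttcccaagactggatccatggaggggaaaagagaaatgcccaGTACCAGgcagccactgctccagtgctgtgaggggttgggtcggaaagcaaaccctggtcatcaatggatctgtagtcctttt
A match describes these letters and does not show that a factor binds there.

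All 9 genes are protein coding and lie on 8 different chromosomes of GRCm38, with Mobp (plus strand) and Trf (minus strand) both on chromosome 9. Exons of Cnp overlapped Dnajc7 on the opposite strand by 154 bases, and exons of Ermn overlapped Galnt5 on the opposite strand by 237. Reads in these stretches are uncertain, because the sources do not give the strand setting of the counting. On the same strand, exons of Trf overlapped Gm20425 by 2108 bases, and exons of Mobp overlapped Gm38642 by 79. Neither Gm20425 nor Gm38642 is among the 25230 genes with counts, and what these overlaps did to the counts was not tested.

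As CPM per kilobase of transcript (median length of the gene's coding transcripts), the order of the 9 genes by their median level over the 38 libraries was Mobp 3172, Mbp 1977, Trf 432.5, Cnp 238.2, Mag 134.9, Cldn11 134.2, Mog 82.6, Ermn 39.1 and Opalin 22.7. Within a library, 6 of the 8 neighbouring pairs in this order kept it in all 38 libraries, Mobp above Mbp among them. Mag lay above Cldn11 in 26 of 38 libraries and Ermn above Opalin in 33 of 38. With the longest transcript of each gene in place of the median length, Mobp stood at 480.7 and Mbp at 797.1, which turned their order, and Trf stood at 136.8, below Cnp. The 9 genes together took between 0.342% and 1.91% of all counts of a library, and Mbp alone between 0.186% and 1.16%. All 9 genes were detected in every library, as was Slc32a1, the vesicular transporter of the GABA neurons that make up most of this nucleus (133.1 to 302.1 CPM).

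Mbp encodes myelin basic protein, which holds the cytoplasmic faces of compact myelin together. Its level (CPM) had a lowest, median and highest value of 1830, 4274 and 12238 in control females, 1937, 3098 and 13349 in stressed females, 1848, 3667 and 9034 in control males, and 1835, 3906 and 5179 in stressed males. The ranges of all 4 groups overlapped, and the top value of the control females, the stressed females and the control males came from a library that stood apart. Mobp encodes a second basic protein of compact myelin. Its CPM had a lowest, median and highest value of 700.9, 1941 and 4738 in control females, 703.0, 1494 and 5906 in stressed females, 566.2, 1728 and 4351 in control males, and 645.6, 1483 and 2836 in stressed males. Over all libraries the highest Mobp value was 10.4 times the lowest, the widest span of the 9 genes, against 7.29 times for Mbp.

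Mog encodes a glycoprotein on the outermost face of the sheath, and Mag a sialic acid-binding receptor on its innermost face, next to the axon. Mog CPM had a lowest, median and highest value of 42.6, 98.1 and 197.9 in control females, 39.3, 83.1 and 176.7 in stressed females, 38.4, 115.4 and 218.2 in control males, and 44.9, 93.0 and 151.8 in stressed males. Mag CPM was 147.1, 306.4 and 633.0 in control females, 145.7, 240.9 and 435.2 in stressed females, 132.1, 246.8 and 432.7 in control males, and 161.3, 247.0 and 360.2 in stressed males. For both genes the ranges of the 4 groups overlapped, and the stressed males had the lowest maximum. Cnp encodes a phosphodiesterase of the cytoplasm-filled channels of the sheath, and Cldn11 the claudin of its tight junctions. Cnp CPM was 293.3, 583.4 and 1064 in control females, 302.7, 426.1 and 911.1 in stressed females, 299.6, 575.4 and 1002 in control males, and 306.1, 506.8 and 755.6 in stressed males. Cldn11 CPM was 100.4, 266.6 and 430.3 in control females, 99.4, 223.1 and 434.2 in stressed females, 88.0, 297.6 and 491.5 in control males, and 98.5, 222.8 and 446.2 in stressed males. The groups overlapped for both genes, and the median was lower in the stressed than in the control libraries of each sex.

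Trf encodes transferrin, the iron carrier that oligodendrocytes and the choroid plexus make in the brain. Its CPM had a lowest, median and highest value of 238.5, 423.2 and 814.5 in control females, 205.9, 325.3 and 496.6 in stressed females, 213.3, 418.6 and 707.4 in control males, and 228.9, 341.7 and 496.4 in stressed males. In females 3 of 10 controls lay above every stressed library and 1 of 9 stressed libraries lay below every control. Opalin, a membrane glycoprotein of mature oligodendrocytes, was the least abundant. Its CPM was 18.5, 43.8 and 94.5 in control females, 19.9, 38.2 and 82.3 in stressed females, 18.4, 48.0 and 117.6 in control males, and 18.6, 42.8 and 67.9 in stressed males. Ermn encodes ermin, an actin-binding protein that appears late in oligodendrocyte differentiation. Its CPM was 59.4, 145.8 and 208.2 in control females, 62.3, 141.6 and 163.9 in stressed females, 43.9, 139.7 and 241.9 in control males, and 61.0, 137.8 and 306.7 in stressed males. Ermn was the only member whose highest value came from a stressed male, library 4.

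**Figure D1:**
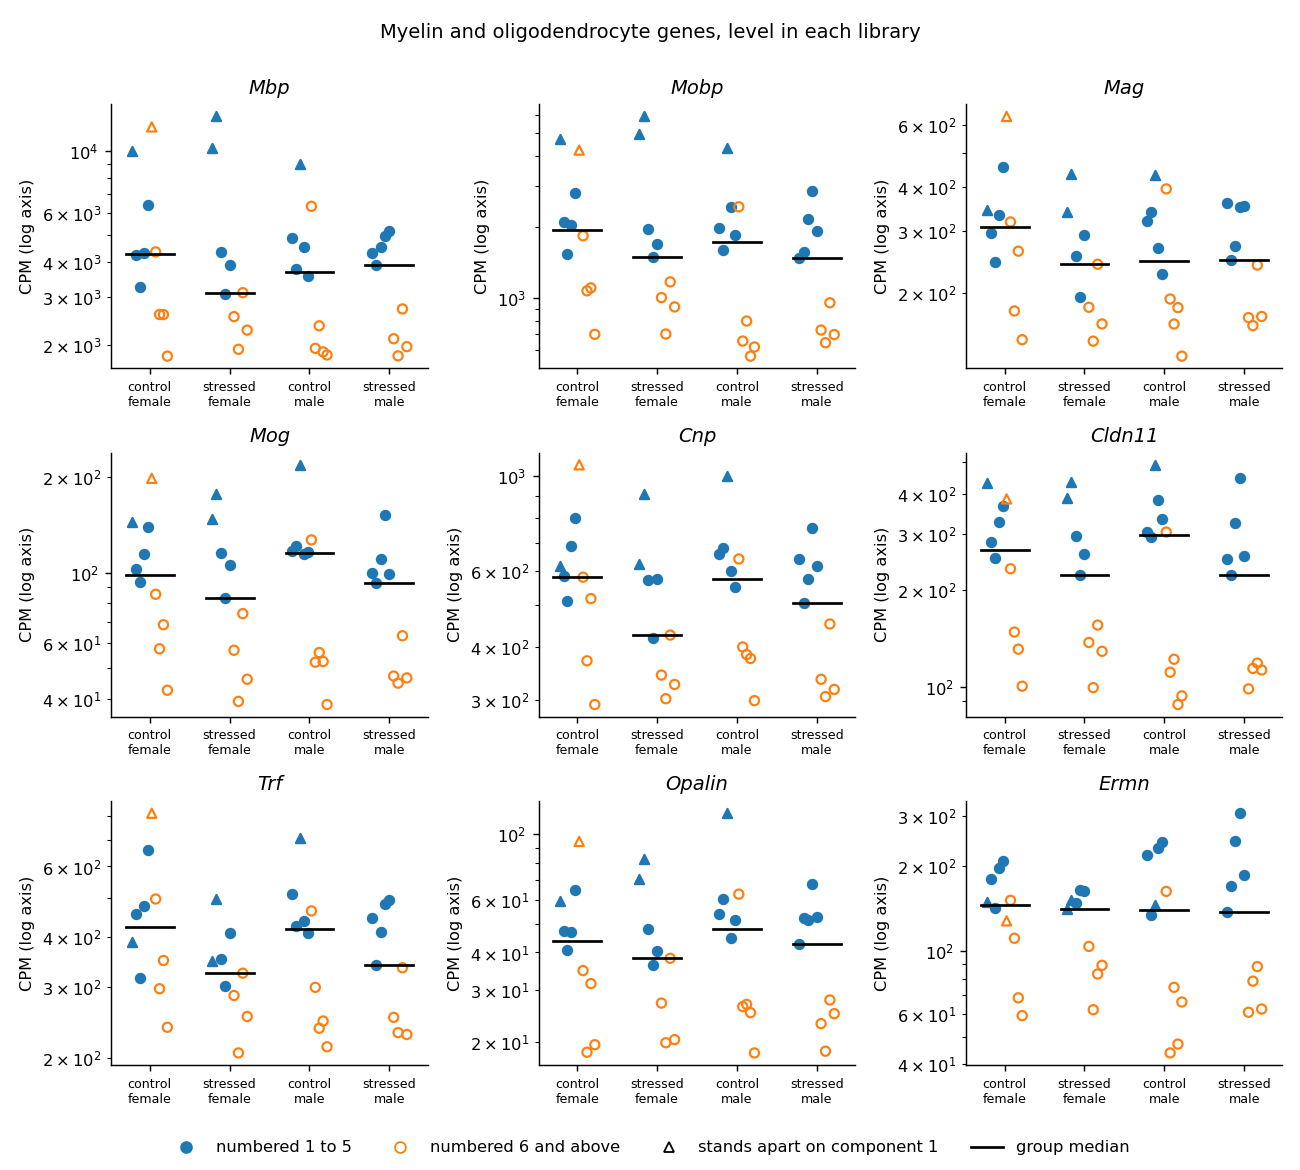
CPM of each gene (log axis) in the 38 libraries, by group. Filled blue points are libraries numbered 1 to 5, open orange points those numbered 6 and above, triangles the 5 libraries that stand apart, and the bar is the group median. Within every group most open points lie below the filled ones, and the 5 triangles lie highest for Mbp and Mobp but not for Ermn.

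Chronic stress in females came with estimates below 0 for all 9 genes and a call for none. The 9 log2 changes had a median of -0.17 and ran from -0.44 to -0.01, beside a median of 0.01 over all genes, of which 46.4% lay below 0. The 9 genes varied together over the libraries (median Spearman's rho of 0.91 between pairs). Their shared sign, here and in the comparisons below, is therefore not 9 separate readings. Leaving out 1 library moved that median to -0.35 (without stressed female 2) or -0.07 (without stressed female 7). Trf had the largest change, -0.44 ± 0.21, a fold of 0.737 (unadjusted p = 0.0467, edgeR adjusted p = 1). Mag stood at -0.36 ± 0.24 and Cnp at -0.27 ± 0.23 (edgeR adjusted p = 1 for both). The other 6 members had changes of -0.01 to -0.18 with SEs of 0.30 to 0.41. In the bulk tissue of these libraries, fewer oligodendrocytes and less RNA per oligodendrocyte cannot be told apart. Neither can be told from differences in dissection or in the libraries themselves. The share of all genes that edgeR called in this comparison was 0% (308 genes had an unadjusted p under 0.05), DESeq2 called 0 (358 under 0.05) and limma voom with quality weights called 0 (818 under 0.05).

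In stressed males 8 of 9 estimates lay below 0 and none was called. Their median was -0.20, beside -0.02 over all genes, of which 55% lay below 0. Opalin stood at -0.28 ± 0.32, Mog at -0.27 ± 0.31 (0.384 unadjusted) and Mobp at -0.26 ± 0.41, with edgeR adjusted p-values of 0.882, 0.882 and 0.904. Cldn11 stood at -0.22 ± 0.34, Mbp at -0.20 ± 0.37, Cnp at -0.16 ± 0.23, Trf at -0.14 ± 0.21 and Mag at -0.04 ± 0.24. Ermn was the member above 0, at 0.12 ± 0.31. EdgeR called 0% of all genes (655 had an unadjusted p under 0.05), and DESeq2 and limma voom called 0 (729 and 1070 under 0.05). The 95% interval of the Mbp change ran from -0.78 to 0.66 in females and from -0.91 to 0.52 in males, so changes of up to about that size in either direction could not be told from 0 here.

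No member passed a test between the sexes. The difference of the stress effect, males minus females, had a median of -0.05 over the members, with 5 of 9 below 0, and ran from -0.25 ± 0.58 for Mobp to 0.33 ± 0.34 for Mag. Its median changed sign with 1 library, from -0.21 without stressed male 4 to 0.21 without stressed female 2. EdgeR called 0% of all genes for this difference (736 had an unadjusted p under 0.05), and DESeq2 and limma voom called 0 (803 and 964 under 0.05). Averaged over the sexes, stress gave a median of -0.20 with all 9 below 0 (-0.29 without stressed female 2, -0.11 without male control 3), and edgeR called 0% of genes (239 under 0.05), as DESeq2 and limma voom called 0 (265 and 839 under 0.05). Trf had the smallest p, with -0.29 ± 0.15 (unadjusted p = 0.0613, edgeR adjusted p = 1). Males minus females gave 0 called members in controls, where 0.0674% of all genes were called (0.0491% higher in males, 0.0184% lower), and 0 in stressed mice, where 0.0858% were (0.0797% higher, 0.00613% lower). The member values ran from -0.37 ± 0.36 for Mbp to 0.08 ± 0.31 for Opalin in controls, and from -0.61 ± 0.42 for Mobp to 0.27 ± 0.32 for Ermn in stressed mice. These comparisons share libraries, so their values are not independent of each other.

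**Figure D2:**
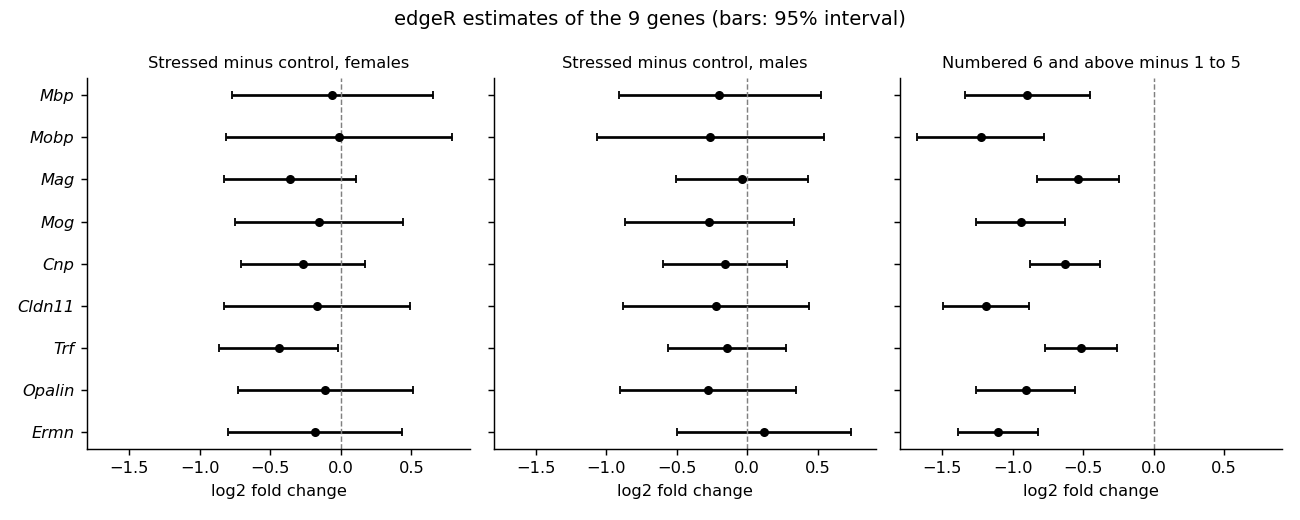
Log2 fold changes of the 9 genes with 95% intervals from edgeR, for stress in females (left), stress in males (middle) and libraries numbered 6 and above minus 1 to 5 within groups (right). All 18 stress intervals but that of Trf in females include 0, while the 9 intervals on the right lie below 0.

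Other genes of the lineage were read in the same tests, and 0 passed. Myrf stood at -0.28 ± 0.22 and 0.09 ± 0.22, Sox10 at -0.03 ± 0.28 and -0.08 ± 0.28, Olig2 at 0.05 ± 0.21 and -0.03 ± 0.21, and Pdgfra at -0.03 ± 0.16 and 0.25 ± 0.16, in females and males respectively. Of 26 further myelin and mature oligodendrocyte genes, 0 passed in either sex, with medians of -0.13 and -0.16. In males the smallest p of this list belonged to Enpp2, the enzyme autotaxin (0.71 ± 0.30, edgeR adjusted p = 0.863). Of 9 genes of myelin lipid synthesis 0 passed (medians -0.10 and -0.04), with the smallest p for Ugt8a (-0.32 ± 0.33) in females and Elovl1 (-0.13 ± 0.18) in males. Of 10 transcription factors of the lineage 0 passed (medians -0.14 and -0.05), with the smallest p for Zfp488 (-0.24 ± 0.15) and Zfp536 (0.55 ± 0.28). Of 15 genes of precursors and differentiating cells 0 passed (medians -0.09 and 0.06), with the smallest p for Gpr17 (-0.30 ± 0.14) and Itpr2 (0.20 ± 0.09).

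Lists named for other cells and for neighbouring regions were read in the same comparisons, and 0 members of any of these lists passed. In females the gene with the smallest p was Gfap among 10 astrocyte genes (0.48 ± 0.28), Tmem119 among 10 microglial genes (-0.26 ± 0.23), Cdh5 among 10 endothelial genes (-0.36 ± 0.14) and Cfap126 among 10 ependymal genes (0.64 ± 0.36). It was Otx2 among 10 choroid plexus genes (0.41 ± 0.35), Nefl among 12 neuronal genes (-0.18 ± 0.08), Tac1 among 12 striatal genes (0.20 ± 0.27) and Crhr2 among 8 septal genes (0.50 ± 0.23). In males these genes were S100b (-0.39 ± 0.22), C1qb (-0.35 ± 0.20), Flt1 (0.30 ± 0.18), Hydin (0.48 ± 0.53), Ttr (5.57 ± 1.19, edgeR adjusted p = 0.566), Eno2 (-0.09 ± 0.10), Tac1 (-0.49 ± 0.27) and Prdm16 (0.42 ± 0.16), in the same order. The large Ttr value came with 1 library: the 10 choroid plexus genes summed to 3345 CPM in stressed male 5, where the stressed males had a median of 109.1. Trf, which the choroid plexus also makes, stood at 496.4 CPM in that library, the highest of the stressed males, with 482.6 in the next. The part of choroid plexus RNA in Trf was not tested. These single genes do not stand for their lists. The list medians in females and males were 0.023 and 0.04 for astrocyte genes and -0.114 and 0.071 for microglial genes. They were -0.175 and 0.135 for endothelial genes and 0.251 and -0.123 for ependymal genes, 7 of 10 of which lay below 0 in males. Choroid plexus genes had medians of 0.074 and 1.818, and neuronal genes 0.016 and -0.01. The septal median was 0.25 in females and 0.38 in males, with 8 of 8 and 6 of 8 genes above 0. The striatal median was 0.16 in females and -0.33 in males, and its part in the member values was not tested.

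Libraries numbered 6 and above had lower levels of all 9 genes than those numbered 1 to 5 of the same group, and all 9 passed, where 22.3% of all genes passed with a lower level and 23.2% with a higher one. The sets were compared because earlier results of these data had shown that they differ. The p-values below therefore describe the sets and are not those of an independent test. Ermn fell by 1.10 on the log2 scale (SE 0.14, edgeR adjusted p = 1.53e-07), Cldn11 by 1.19 (SE 0.16, edgeR adjusted p = 1.48e-07) and Mobp by 1.22 (SE 0.23, edgeR adjusted p = 4.24e-05). Mog was lower by a log2 value of -0.94 ± 0.16 (edgeR adjusted p = 1.2e-05), Opalin by -0.91 ± 0.18 (7.59e-05) and Mbp by -0.90 ± 0.23 (0.00138). The smallest differences were those of Cnp (-0.63 ± 0.13), Mag (-0.54 ± 0.15) and Trf (-0.51 ± 0.13), with edgeR adjusted p-values of 0.000116, 0.00349 and 0.00136. The median of the 9 was -0.91, beside 0.01 over all genes. All 9 passed in each of the 38 fits that left out 1 library, and without the 5 libraries that stand apart, where the median was -0.90. Over all genes 3782 were higher and 3632 lower, and scaling by library totals without the ribosomal RNA precursor Rn45s, in place of the trimmed mean, gave 4864 higher and 2722 lower with all 9 members still lower.

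The ranges of the number sets nevertheless overlapped for every member, whereas 0.104% of all genes were lower and 0.0184% higher without overlap. Ermn came closest to a clean separation: 16 of 18 libraries numbered 6 and above lay below every library numbered 1 to 5, and 12 of 20 libraries numbered 1 to 5 lay above all of the others. Its CPM ran from 133.8 through a median of 167.2 to 306.7 in libraries numbered 1 to 5, and from 43.9 through 76.6 to 162.7 in those numbered 6 and above. Mbp ran from 3054 through 4428 to 13349 and from 1830 through 2312 to 12238. The high end of the second set was made by 2 control libraries, female 6 (Mbp 12238 CPM), which stands apart, and male 6 (Mbp 6337 CPM), which does not. Cldn11 ran from 222.8 through 312.7 to 491.5 CPM in libraries numbered 1 to 5, and from 88.0 through 120.1 to 384.7 in those numbered 6 and above.

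Further genes of the lineage were compared between the number sets. Of the 26 further myelin genes 24 were lower and 0 higher (median -0.76), among them Tspan2, a tetraspanin (-1.02 ± 0.12), Aspa, which frees acetate for lipid synthesis (-1.03 ± 0.13), and Tmem88b (-1.26 ± 0.17). Of the 9 lipid genes 9 were lower (median -0.67), led by Ugt8a, the enzyme that makes galactosylceramide (-1.20 ± 0.14), and with Elovl7 (-0.87 ± 0.13) and Degs1 (-0.25 ± 0.05). Of the 10 transcription factors 6 were lower and 0 higher (median -0.34), including Nkx2-2 (-0.79 ± 0.16), Olig2 (-0.54 ± 0.12), Myrf (-0.50 ± 0.13) and Zfp488 (-0.32 ± 0.09). Sox10 stood at -0.38 ± 0.19 and did not pass (edgeR adjusted p = 0.0991). The 15 genes of precursors and differentiating cells split into 4 higher and 4 lower, shares near the 23.2% and 22.3% over all genes. Pdgfra (0.33 ± 0.10, edgeR adjusted p = 0.00764), Cspg4, the NG2 proteoglycan (0.69 ± 0.09), and Tnr (0.79 ± 0.20) were higher, and Enpp6 (-1.06 ± 0.12) and Bcas1 (-1.10 ± 0.23), which mark newly forming oligodendrocytes, were lower.

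The lists named for striatum, ependyma and septum moved with the number sets as well. Whether their RNA came from tissue around the nucleus or from the nucleus itself was not tested. All 12 striatal genes were lower in libraries numbered 6 and above (median -0.86), for example Tac1 (-0.93 ± 0.13), Rgs9 (-0.88 ± 0.12) and Ido1 (-1.56 ± 0.23). Their summed level ran from 2383 to 8059 CPM in libraries numbered 1 to 5 and from 1209 to 6639 in those numbered 6 and above. All 10 ependymal genes were higher (median 1.36), led by Hydin (2.12 ± 0.20), Ak7 (1.75 ± 0.17), Tmem212 (2.00 ± 0.22) and Foxj1 (1.14 ± 0.13). Their summed level ran from 35.9 to 112.5 CPM and from 65.0 to 247.6 CPM. Of 8 septal genes 5 were higher, among them Crhr2 (0.67 ± 0.13), Trpc4 (0.62 ± 0.13), Prdm16 (0.42 ± 0.10) and Zic1 (0.62 ± 0.19). The other lists had calls in both directions or few calls, where 23.2% of all genes were higher and 22.3% lower: 2 higher and 2 lower of 10 astrocyte genes (Fgfr3 at 0.36 ± 0.06, S100b at -0.43 ± 0.14), 1 and 1 of 10 microglial genes (Csf1r at 0.48 ± 0.15, Aif1 at -0.40 ± 0.12), and 2 and 2 of 10 endothelial genes (Slc2a1 at 0.24 ± 0.08, Slco1a4 at -0.45 ± 0.12). Of 12 neuronal genes 1 was higher (Slc32a1 at 0.33 ± 0.07) and 3 lower (Nefm at -0.66 ± 0.07), and of 10 choroid plexus genes 1 was higher (Otx2 at 0.85 ± 0.21). No marker gene of these lists was at 0 in all libraries. Rn45s took 0.121% to 2.17% of the counts in libraries numbered 1 to 5 and 0.754% to 4.81% in those numbered 6 and above. The part of any of these in the member values was not tested.

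**Figure D3:**
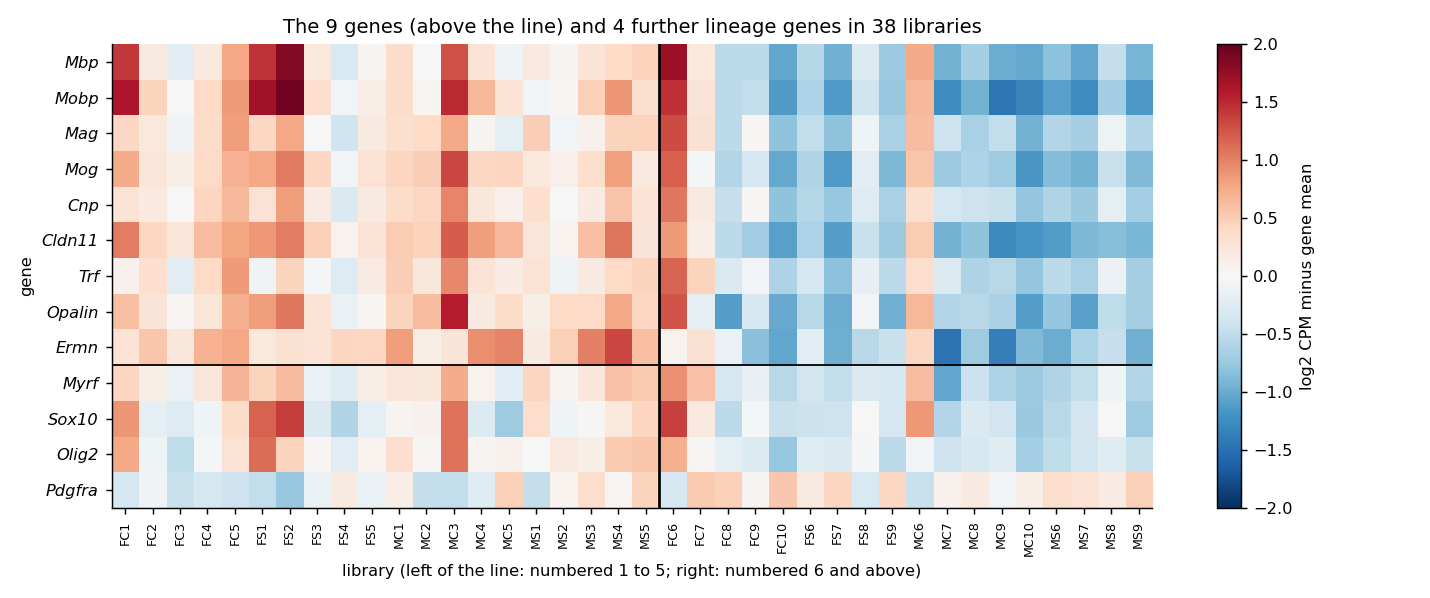
Log2 CPM minus the mean of the gene, red above and blue below, for the 9 genes, Myrf, Sox10, Olig2 and Pdgfra in 38 libraries. Letters give sex (F, M) and control or stressed (C, S), and the upright line separates libraries numbered 1 to 5 from those numbered 6 and above. The 9 genes are mostly red on the left and blue on the right, with FC6 and MC6 among the exceptions, and Pdgfra runs the other way.

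Read within each number set, the estimates of stress in females came apart. In libraries numbered 1 to 5 the 9 log2 changes had a median of -0.05 with 5 of 9 below 0, and Mbp stood at 0.30 ± 0.36. In libraries numbered 6 and above the median was -0.72 with all 9 below 0, and Mbp stood at -0.94 ± 0.46, Trf at -0.72 ± 0.29 (unadjusted p = 0.0225) and Cnp at -0.70 ± 0.28 (unadjusted p = 0.0227), with an edgeR adjusted p of 0.928 for each. The difference of the stress effect between the sets, tested with 8 means, was -1.24 ± 0.62 for Mbp (unadjusted p = 0.0516, edgeR adjusted p = 0.76), and 0% of genes were called (790 with an unadjusted p under 0.05). Without female control 6, the library of that set that stands apart, the median was -0.24 with 8 of 9 below 0, Mbp stood at -0.21 ± 0.33 and Trf at -0.37 ± 0.23. Without the 4 libraries that stand apart, those numbered 1 to 5 gave a median of -0.27 with 9 of 9 below 0, Mbp at -0.27 ± 0.18 and Trf at -0.42 ± 0.18 (unadjusted p = 0.031, edgeR adjusted p = 1). No member passed in any of these fits. In the fit over all libraries, Mbp in females moved from -0.06 to 0.17 without female control 6 and to -0.40 without stressed female 2.

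In males the medians were -0.19 in libraries numbered 1 to 5 and -0.37 in those numbered 6 and above, and Mbp stood at -0.16 ± 0.36 and -0.42 ± 0.45. The difference between the sets was -0.24 ± 0.61 for Mbp and called 0% of genes (183 with an unadjusted p under 0.05). Without male control 3, the library that stands apart, the median in all males moved from -0.20 to -0.003. Without all 5 libraries that stand apart it was -0.006 with 5 of 9 below 0, and -0.12 with 9 of 9 below 0 when a term for the number set was added. Trf in females lay below 0 in each of these fits, from -0.27 in libraries numbered 1 to 5 to -0.72 in those numbered 6 and above. With a term for the number set it stood at -0.51 ± 0.18 (unadjusted p = 0.00827, edgeR adjusted p = 1), and its adjusted p over all alternatives ran from 0.915 to 1.

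**Figure D4:**
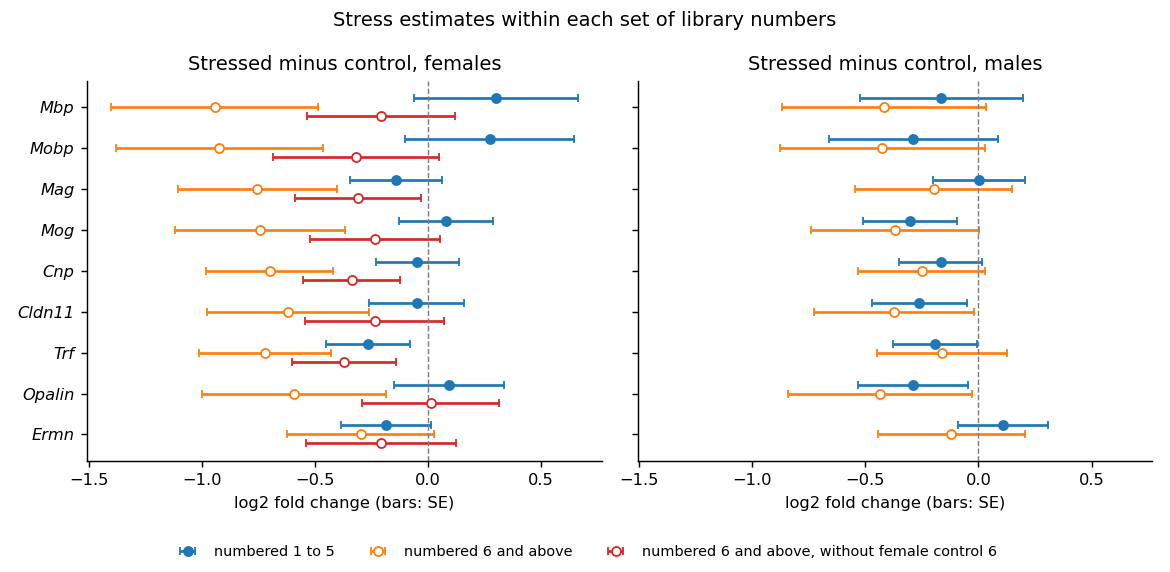
Log2 fold change of stressed minus control ± SE for each gene, in females (left) and males (right), fitted within libraries numbered 1 to 5 (blue), 6 and above (orange) and, for females, 6 and above without female control 6 (red). In females the orange points lie left of the blue ones, and leaving out 1 library moves them to between -0.37 and 0.01.

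Across the 38 libraries the levels of the 9 genes varied together. Over the 36 pairs of members Spearman's rho of log2 CPM ran from 0.63 to 0.97 with a median of 0.91. Without the 5 libraries that stand apart it ran from 0.71 to 0.96 with a median of 0.90. The libraries share the number sets and the shifts of the marker lists described above, so these are descriptions of the libraries. Within libraries numbered 1 to 5 rho ran from -0.17 to 0.92 (median 0.67) and within those numbered 6 and above from 0.46 to 0.95 (median 0.83). Ermn made the low end of the first set. Its pairs there ran from -0.17 with Mag to 0.30 with Trf, and the lowest pair without Ermn was 0.45, for Mobp and Trf. After the means of group and number set were taken off, it ran from 0.22 to 0.96 with a median of 0.77. Against the mean of the other 8 members, Mog had the highest rho (0.97) and Ermn the lowest (0.73). Relative to the mean of all 9 genes, the SD of log2 CPM over libraries was 0.11 for Mog and 0.42 for Ermn, with Mobp next at 0.34. Of the further lineage genes, Myrf had a rho of 0.93 with the members, Olig2 0.88, Sox10 0.81 and Pdgfra -0.61.

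Outside the list, the 10 named genes whose levels were most like the mean of the 9, by Spearman's rho over 38 libraries, were Mal (0.98), Desi1 (0.98), Bcas1 (0.97), Pogk (0.97), Lpar1 (0.97), Gltp (0.97), Fa2h (0.97), Tmem88b (0.96), Plekhb1 (0.96) and Galnt6 (0.96). Mal, a proteolipid of myelin, Fa2h, which hydroxylates the fatty acids of myelin lipids, and Gltp, a glycolipid transfer protein, are themselves genes of the lists above. Bcas1, Lpar1, Tmem88b and Plekhb1 are in those lists too, and Desi1, Pogk and Galnt6 are in none. By Pearson's r 7 of these 10 stayed among the 10 most alike, and by deviations from group and set means 5 did. The 5 genes that ran most against the members were Anxa7 (-0.93), Zscan18 (-0.91), AW551984 (-0.91), Tmem132d (-0.91) and Tro (-0.90). The median rho was 0.91 for the 26 further myelin genes, 0.82 for lipid synthesis, 0.78 for the transcription factors and 0.77 for the striatal genes, beside -0.02 over all genes. It was 0.00 for precursor genes and -0.63 for ependymal genes.

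The 5 libraries that stand apart broke the common pattern. There Mbp stood between 9034 and 13349 CPM and Mobp between 4249 and 5906, above every other library numbered 1 to 5, where Mbp ran from 3054 to 6429 and Mobp from 1483 to 2836. Their medians were 2.38 and 2.43 times those of the other 16. Opalin, Mog, Cnp, Mag and Cldn11 stood at 1.66, 1.57, 1.54, 1.48 and 1.47 times, with overlapping ranges. Trf stood at 1.15 times. Ermn had a lower median in the 5, at 0.797 times, with 128.1 to 151.4 CPM against 133.8 to 306.7 in the other 16. The 128.1 CPM was that of female control 6, the 1 of the 5 that is numbered 6 and above. The other libraries of that set ran from 43.9 to 162.7 CPM, so its Ermn level was not low for its set.

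The ratio of Mbp to Ermn was 62.0, 67.4, 72.4, 88.1 and 95.5 in the 5, and between 14.8 and 44.5 in the other 33. The component that picked the 5 was computed over all genes tested, the members among them. Its separation of this ratio is therefore a description and not a test. The ratio of Mbp to Trf ran from 12.8 to 29.4 in the 5 and from 6.51 to 13.6 in the others, so that these ranges overlapped. The ratio of Mbp to Mobp ran from 2.07 to 2.88 in the 5 and from 1.75 to 3.35 in the others, which enclosed it. In the same 5 libraries Sox10 was between 156.3 and 219.8 CPM, above the 51.3 to 114.1 CPM of the other 16 numbered 1 to 5. The correlation of a gene's deviation with its transcript length was -0.33 to -0.19, against -0.08 to 0.22 in the other 16 numbered 1 to 5 and -0.31 to 0.29 in the other 17 numbered 6 and above. The median coding transcript has 498 bases for Mobp, 813 for Trf, 1165.5 for Mog, 1839 for Opalin and 1870 for Cldn11. It has 1916.5 bases for Mag, 1934.5 for Mbp, 2357 for Cnp and 3635 for Ermn. The longest has 2571 bases for Trf, 3286 for Mobp and 4797 for Mbp, beside the same 3635 for Ermn. Rn45s took 1.09% to 4.81% of the counts in the 5 and 0.121% to 2.79% in the other 33, and the 12 striatal genes summed to 3536 to 8059 CPM and 1209 to 5771 CPM, so both ranges overlapped. Whether any of these bears on the ratio was not tested. The 5 libraries come from 3 of the 4 groups.

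**Figure D5:**
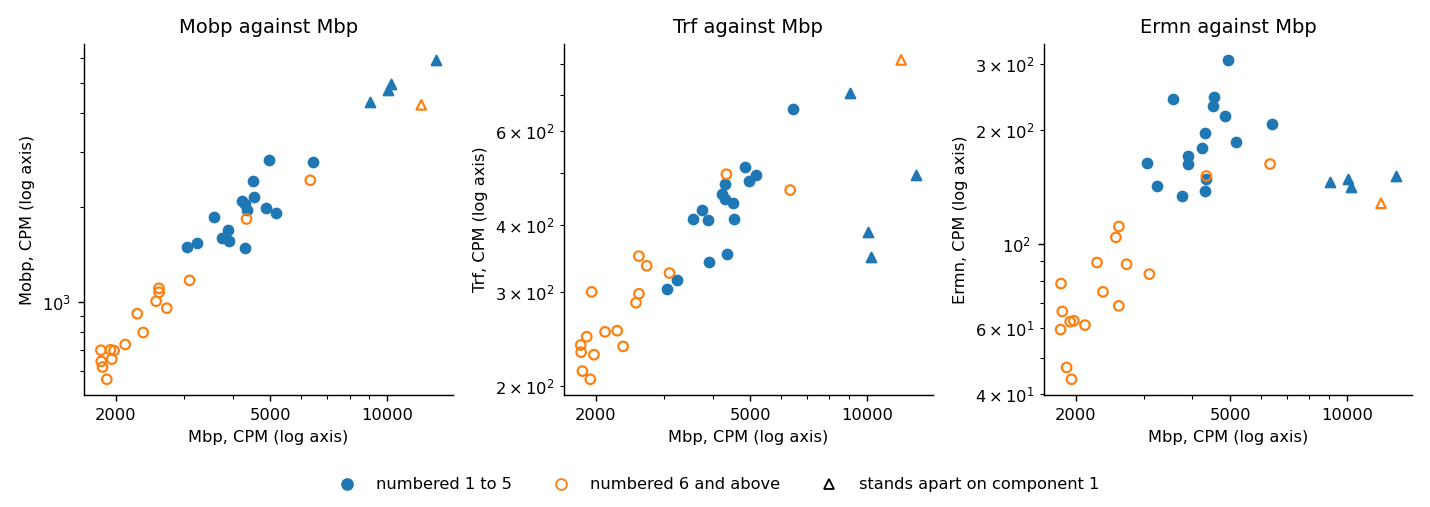
Mobp, Trf and Ermn against Mbp in CPM, 1 point per library on log axes, with symbols as in the plot of levels by group. Mobp follows Mbp over its whole range, while the 5 triangles lie right of the other libraries at an Ermn level of 128.1 to 151.4 CPM.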

How the data were processed

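The authors deposited raw counts for each gene symbol in 38 columns, judged unscaled from whole numbers with differing totals. The tools named in the submitters' processing notes are STAR, featureCounts and DESeq2, with the build mm10. Versions, annotation and strand setting: not given in the sources used here. The labels' protocols state poly-A selection and stranded libraries.

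Here edgeR 4.0.16 (limma 3.58.1, R 4.3.3) filtered genes with filterByExpr by group, normalised by TMM and fitted 1 mean per group over the 38 libraries, with a biological coefficient of variation of 0.266. No pair of libraries of 1 group agreed within counting noise (chi-square per gene of at least 8.19). Number sets were compared within groups in a model that added the set. Intervals are estimate ± 1.96 SE. Log2 CPM used a prior count of 2. Coordinates and lengths came from GENCODE M21 (GRCm38), and 0 columns belonged to other samples.

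The members, the gene lists and the split into number sets were chosen with earlier results of these data known. Named genes were the 9 members, Sox10, Myrf, Olig2 and Pdgfra, up to 4 passing members of every other list or else the member with the smallest p, and the 10 most and 5 least alike genes. A few genes that this rule names are not reported here. Alternatives were other scalings and filters, DESeq2 1.42.0, limma voom, number terms, library subsets and each library left out. The fit was tested on simulated data.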

Additional observations from a re-analysis of the deposited data

Results flagged for a closer look

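Male control 3 lay far above the other male controls for 3 of the 9 genes. It held 218.2 CPM of Mog, where the next highest male control held 126.7, 4351 CPM of Mobp, where the next held 2440, and 117.6 CPM of Opalin, where the next held 62.9. The gap to the nearest other library was 0.509, 0.505 and 0.552 of the whole range of the group, above the critical value of 0.466 for 10 libraries. These were 3 of 36 sets of values examined (9 genes in 4 groups). Chance gives about 1 in 20 for normally distributed values, and the values here were CPM without a log. The 3 flags are not independent, because they come from 1 library and the 3 genes varied together (Spearman's rho of 0.92 to 0.96 over the 38 libraries). The library is 1 of the 5 that stand apart on the first component and has the fewest counts, 9064136.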

How the results depend on the processing

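All 9 members passed between the number sets under every alternative that tested them, and 0 passed for stress or sex under any. The values below 0 or above 0 that follow are log2 changes that took the other sign than in the fit reported above, none of them called in either, or counts of passing genes that moved by over 1.5 times, against 11 for males minus females in controls and 14 in stressed mice. The cause was not tested. In libraries numbered 1 to 5 the values were Mbp 0.303, Mog 0.081, Mobp 0.275, Opalin 0.092 for stress in females and Mag 0.002 for stress in males. It gave Cnp -0.122 for the sex difference of the stress effect and Mbp 0.069 for stress averaged over the sexes. It gave 7 genes passing, Mog 0.214, Cnp 0.131, Cldn11 0.131, Trf 0.126, Ermn 0.161 for males minus females in controls and 8 genes passing for males minus females in stressed mice. In libraries numbered 6 and above without the 1 that stands apart the values were Opalin 0.013 for stress in females and Ermn -0.11 for stress in males. It gave Mbp 0.02, Mog 0.033 for males minus females in controls and 6 genes passing, Trf -0.023, Ermn -0.215 for males minus females in stressed mice. In libraries numbered 6 and above the values were Ermn -0.12 for stress in males and Mbp 0.526, Mog 0.374, Mobp 0.497, Cldn11 0.245, Opalin 0.157 for the sex difference of the stress effect. It gave Opalin -0.316 for males minus females in controls and 6 genes passing, Trf -0.029, Ermn -0.22 for males minus females in stressed mice. Without the 5 libraries that stand apart the values were Mbp 0.025, Mag 0.075, Mobp 0.011 for stress in males and Mbp 0.318, Mog 0.176, Mobp 0.38, Cldn11 0.253, Opalin 0.181 for the sex difference of the stress effect. It gave Mog 0 for males minus females in controls and Mbp 0.218, Mog 0.177, Mobp 0.18, Cldn11 0.223, Opalin 0.291 for males minus females in stressed mice. Without those 5 and with a term for the number set the values were Ermn -0.01 for stress in males and Mbp 0.11, Mobp 0.129, Cldn11 0.006 for the sex difference of the stress effect. It gave 35 genes passing, Mog 0.046 for males minus females in controls and Mbp 0.069, Mog 0.029, Opalin 0.108 for males minus females in stressed mice. In libraries numbered 1 to 5 without the 4 that stand apart the values were Mbp 0.133, Mag 0.137, Mobp 0.02, Opalin 0.017 for stress in males and Mbp 0.406, Mog 0.068, Mobp 0.321, Cldn11 0.115, Opalin 0.286 for the sex difference of the stress effect. It gave Mog 0.056, Cldn11 0.094, Ermn 0.184 for males minus females in controls and 7 genes passing, Mbp 0.28, Mog 0.124, Mobp 0.212, Cldn11 0.209, Opalin 0.36 for males minus females in stressed mice. With limma voom the values were Mbp 0.226, Mog 0.137, Mobp 0.279, Cldn11 0.22, Opalin 0.124 for the sex difference of the stress effect and 30 genes passing for males minus females in controls. It gave Mbp 0.026, Mog 0.024, Opalin 0.169 for males minus females in stressed mice. With the replicate number as a block the values were Mbp 0.02, Mog 0.013, Mobp 0.005, Cldn11 0.042 for the sex difference of the stress effect. With a term for the number set the values were Mbp 0.008, Mog 0.006, Cldn11 0.041 for the sex difference of the stress effect and Opalin -0.013 for males minus females in controls. With DESeq2 the values were 21 genes passing for males minus females in controls.

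With each library left out in turn, stress in females gave Mbp -0.403 to 0.165, Mobp -0.353 to 0.183, Opalin -0.291 to 0.059. With each library left out in turn, stress in males gave Mag -0.103 to 0.079, Mbp -0.279 to 0.028, Mobp -0.447 to 0.014, Ermn -0.086 to 0.249. With each library left out in turn, the sex difference of the stress effect gave Mbp -0.35 to 0.214, Mog -0.264 to 0.098, Mobp -0.444 to 0.1, Cldn11 -0.258 to 0.124, Opalin -0.324 to 0.088. With each library left out in turn, stress averaged over the sexes gave Ermn -0.134 to 0.034. With each library left out in turn, males minus females in controls gave Mog -0.24 to 0.099, Cldn11 -0.23 to 0.028, Ermn -0.158 to 0.076, Opalin -0.151 to 0.261, Cnp -0.238 to 0.016. With each library left out in turn, males minus females in stressed mice gave Cldn11 -0.333 to 0.042, Opalin -0.213 to 0.102, Mog -0.314 to 0.013, 9 to 15 genes passing, Cnp -0.091 to 0.166, Mag -0.017 to 0.196.

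Not every same-numbered pair of libraries correlated above 0.1, so the numbers were not taken as pairing them: 40 of 55 pairs did, with a median of 0.235 and a lowest value of -0.357, against a median of -0.0648 for differently numbered pairs. After the means of group and number set were taken off, 18 of 55 did, with a median of 0.00337. In all, 9 of 36 libraries correlated best with their own number. With the replicate block 0 genes passed for stress in either sex, and the members' medians were -0.331 in females and -0.228 in males. The fits within a number set without the libraries that stand apart, the fit without all 5 that adds a term for the set, and the test of the stress effect between sets were chosen after seeing the data. Each member had at least 555 counts in each library, so the spread between libraries sets the SEs more than counting does.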
